A study of Mus musculus with 16 samples.

Results

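The breakdown of leucine, isoleucine and valine was followed in mouse heart ventricle through 10 of its genes: Bcat2, Bckdha, Bckdhb, Dbt, Bckdk, Ivd, Mccc1, Mccc2, Hibadh and Aldh6a1. They were found by name among the array probes that are no controls, and all 10 were present, with 17 probes. Of these probes 15 passed the filter on dim spots, at least 1 for each gene, and the brightest probe stood for its gene among the 11058 features tested. The hearts came from 129Sv mice, either wild-type or CHIP-/-, that is without the protein encoded by Stub1, a chaperone partner that tags damaged proteins with ubiquitin. Ventricles were taken 1 week after sham surgery or after TAB, a banding of the aorta that makes the left ventricle pump against a raised pressure. Each of the 4 groups (wild-type sham, wild-type TAB, CHIP-/- sham and CHIP-/- TAB) held 4 arrays, called biological replicates in the study's design text. Heart RNA was hybridized against 1 common reference, RNA of whole neonatal mice, and values below are log2 ratios of the heart to that reference signal, so a gene's level can be compared between groups but not with the level of another gene.

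The 3 branched-chain amino acids are essential nutrients that the heart takes up and oxidizes in its mitochondria. Bcat2 moves their amino group onto another carbon skeleton, and the branched-chain ketoacid dehydrogenase complex then removes a carboxyl group in the step that commits them to oxidation. Bckdha and Bckdhb encode the subunits of its decarboxylase component, Dbt encodes its acyl-transferring core, and the kinase Bckdk switches the complex off by phosphorylation. After this shared step the paths part. Ivd, Mccc1 and Mccc2 act on the leucine skeleton, Hibadh on the valine skeleton, and Aldh6a1 near the end of valine breakdown. Loss of function in several of these genes causes inherited organic acidurias, among them maple syrup urine disease.

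The genes are scattered over the genome (RefSeq, GRCm38.p6). Bcat2, Bckdha and Bckdk lie on chromosome 7, Dbt and Mccc1 on chromosome 3, and Ivd, Hibadh, Bckdhb, Aldh6a1 and Mccc2 on chromosomes 2, 6, 9, 12 and 13. None lies on chromosome 17, which carries Stub1. RefSeq promoters were listed for 9 of the 10 genes, 12 promoters in all, and the 250 bases before each start were searched on both strands. The letters CCAAT, or ATTGG when read from the other strand, are known as the CCAAT box and occurred in 8 of the 12 promoters and in 7 of the 9 genes. They occurred in 33.8% of all 32851 promoters of that length. The following promoters (the first listed start of each gene) are shown because their genes were among those that fell most with TAB, and they differ in the number of these matches. Capitals mark each CCAAT or ATTGG and each GC box (GGGCGG, or CCGCCC from the other strand), and each sequence runs in the direction of its gene.
Ivd, chr2:118861744-118861993, plus strand: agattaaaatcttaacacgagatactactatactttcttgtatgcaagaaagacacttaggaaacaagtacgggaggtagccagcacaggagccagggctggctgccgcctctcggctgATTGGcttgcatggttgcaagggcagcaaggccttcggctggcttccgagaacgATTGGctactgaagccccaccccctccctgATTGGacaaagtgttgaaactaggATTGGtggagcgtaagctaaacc
Aldh6a1, chr12:84451025-84451274, minus strand: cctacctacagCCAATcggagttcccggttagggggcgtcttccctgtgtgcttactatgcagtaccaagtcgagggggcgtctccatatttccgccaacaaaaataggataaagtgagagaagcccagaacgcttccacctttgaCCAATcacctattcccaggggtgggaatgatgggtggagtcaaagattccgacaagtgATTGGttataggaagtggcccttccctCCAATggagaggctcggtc
Mccc1, chr3:36000679-36000928, minus strand: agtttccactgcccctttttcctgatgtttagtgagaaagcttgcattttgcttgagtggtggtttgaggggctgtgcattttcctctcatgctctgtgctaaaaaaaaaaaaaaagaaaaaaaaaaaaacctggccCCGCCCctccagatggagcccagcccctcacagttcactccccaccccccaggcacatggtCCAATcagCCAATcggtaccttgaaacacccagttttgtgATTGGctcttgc
Bckdhb, chr9:83924887-83925136, plus strand: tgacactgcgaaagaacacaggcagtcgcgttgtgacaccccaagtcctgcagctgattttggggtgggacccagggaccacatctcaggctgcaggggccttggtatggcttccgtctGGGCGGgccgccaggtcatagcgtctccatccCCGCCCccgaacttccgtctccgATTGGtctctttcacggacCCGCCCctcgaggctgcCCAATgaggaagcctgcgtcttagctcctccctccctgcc
Bckdha, chr7:25658762-25659011, minus strand: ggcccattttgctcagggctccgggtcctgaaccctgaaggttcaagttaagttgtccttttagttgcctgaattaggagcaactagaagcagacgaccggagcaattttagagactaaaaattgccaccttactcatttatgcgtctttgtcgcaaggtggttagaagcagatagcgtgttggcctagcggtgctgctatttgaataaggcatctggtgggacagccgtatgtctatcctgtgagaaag
The Ivd and Aldh6a1 promoters each held 4 CCAAT matches, that of Mccc1 held 3 and that of Bckdhb held 2, while that of Bckdha held 0. The 4 matches of Ivd all read ATTGG, and the nearest ended at the base 19 before the start. GC boxes were found for Bckdhb, Mccc1 and Hibadh and in 32.7% of all promoters. The CACCC box (searched as CCACCC), a sequence that Klf15 and related zinc finger proteins can recognize, was found for Bckdhb, Ivd, Mccc1 and Aldh6a1 and in 28.1% of all promoters. The element of the estrogen-related receptors (TNAAGGTCA), the NRF1 site, the direct repeat bound by the PPAR receptors and the cAMP response element (TGACGTCA) matched 0 of the 12 promoters, against 1.14%, 0.782%, 0.0335% and 1.55% of all promoters. These are matches of letters within a fixed window and no measurement of binding.

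Some properties of the arrays bear on every comparison. Between 27.0% and 37.7% of the heart signals exceeded background clearly (the scanner software's mark "well above background"). Stub1 was lower on all CHIP-/- arrays (log2 ratios from -1.47 to -1.17) than on all wild-type arrays (from -0.41 to 0.43). With TAB, Stub1 itself fell by 0.36 in wild type (limma, adjusted p = 0.011), to 77.7% of its sham ratio, and its difference was 0.00 in CHIP-/-. The sources used here do not give the place of its probe relative to the deletion. Each group was hybridized on a slide of its own, 4 slides in all, and an effect of the slide cannot be told apart from that of the group. Y-linked transcripts (Ddx3y, Eif2s3y) were detected on replicate 4 of wild-type sham and on replicates 2 and 4 of CHIP-/- sham, that is on 3 of 8 sham arrays, and on 0 of 8 TAB arrays. Myl7, the light chain of atrial myosin, had a ratio of 1.89 or more on 3 further ones, replicates 1 and 3 of wild-type sham and replicate 1 of CHIP-/- sham, against at most 0.17 on the rest. Counts of calls are therefore also given without each of these sets of 3 arrays. The defining genes of heart muscle were present throughout, with Tnni3, the inhibitory subunit of cardiac troponin, at a mean ratio of 6.21 in wild-type sham.

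TAB against sham in wild type asks how pressure overload alters these transcripts when CHIP is present. All 10 genes fell, against 17.0% of all features that were called lower. Their median difference was -0.54 on the log2 scale, from -0.74 for Aldh6a1 to -0.22 for Bckdk, and the median of all features was 0.00106. For 9 of the 10, every TAB array lay below every sham array, as was the case for 15.3% of all features; Bckdk was the exception. In CHIP-/- hearts all 10 fell as well, against 23.5% of features called lower, with a median of -0.77 and a range from -1.11 for Aldh6a1 to -0.33 for Bckdk. There, all 10 were lower on every TAB array than on every sham array, against 20.8% of features. In whole ventricle RNA, fewer cells of a type and less RNA per cell cannot be told apart.

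**Figure D1:**
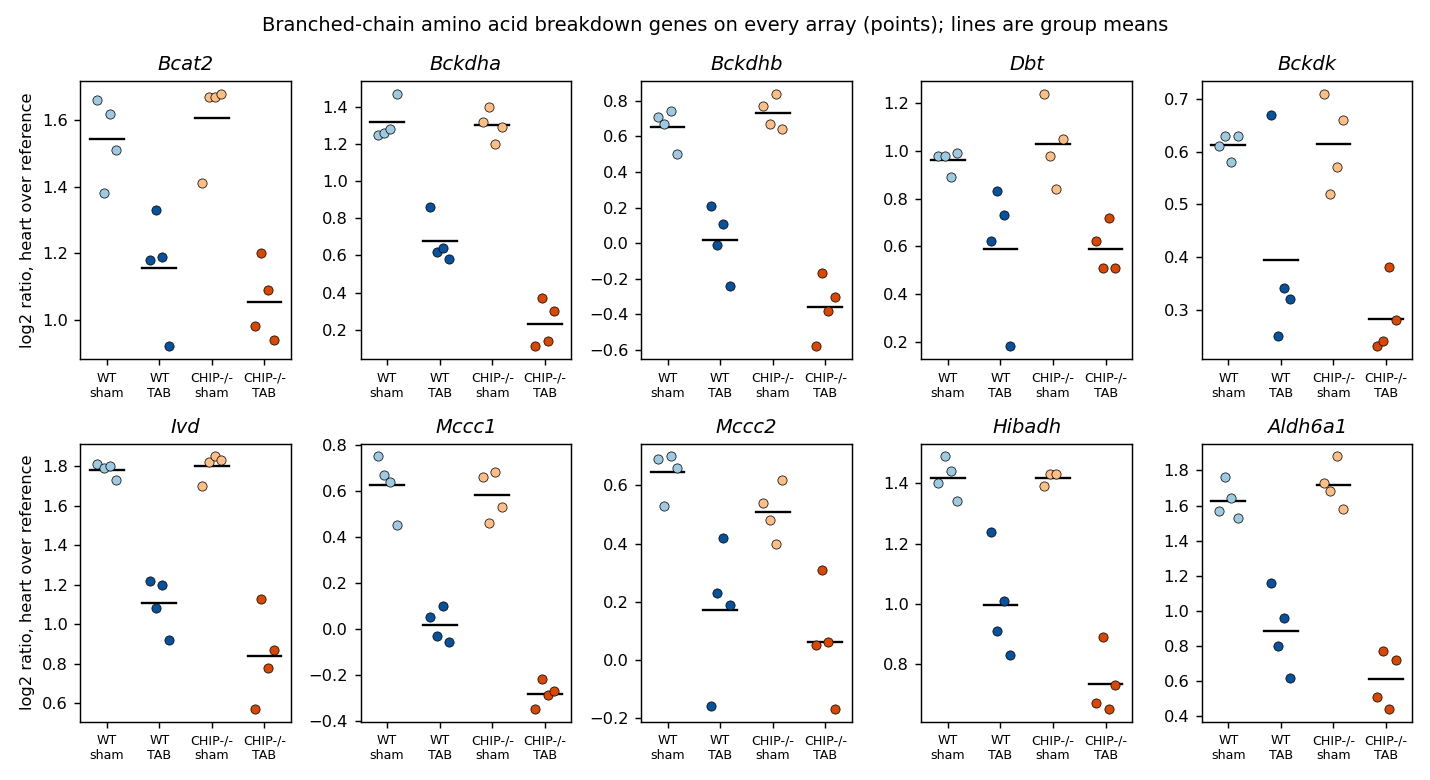
Log2 ratios of heart over reference RNA (y axis, scaled for each gene) of the 10 genes on the 16 arrays, by group (x axis); each point is 1 array and each line is a group mean. In every panel the TAB means lie below the sham means of the same genotype, and the wild-type TAB points of Bckdk overlap those of its sham group.

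Bcat2, the mitochondrial transaminase that opens the pathway, was at 1.66, 1.38, 1.62 and 1.51 in wild-type sham (mean 1.54 ± 0.13, SD, n = 4) and at 1.18, 1.33, 1.19 and 0.92 in wild-type TAB (1.16 ± 0.17, n = 4). It fell by 0.38 (SE 0.09, adjusted p = 0.0038), to 76.6% of its sham ratio. CHIP-/- hearts had 1.41, 1.67, 1.67 and 1.68 after sham and 0.98, 1.20, 1.09 and 0.94 after TAB. This fall of 0.55 (SE 0.09, adjusted p = 8.7e-05) left 68.1%. Sham and TAB did not overlap in either genotype, though in wild type the lowest sham array (1.38) was close to the highest TAB array (1.33).

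Bckdha, the alpha subunit of the decarboxylase component, was at 1.25, 1.26, 1.28 and 1.47 in wild-type sham and at 0.86, 0.62, 0.64 and 0.58 in wild-type TAB, a fall of 0.64 (SE 0.08, adjusted p = 9.5e-06). Its CHIP-/- values were 1.32, 1.40, 1.20 and 1.29 after sham and 0.11, 0.37, 0.14 and 0.30 after TAB, a fall of 1.07 (SE 0.08, adjusted p = 1.1e-08) to 47.6% of the sham ratio. Every CHIP-/- TAB array lay below every wild-type TAB array, while the sham arrays of both genotypes intermingled. Bckdhb, the beta subunit, was at 0.71, 0.67, 0.74 and 0.50 in wild-type sham and at 0.21, -0.01, 0.11 and -0.24 in wild-type TAB, a fall of 0.64 (SE 0.10, adjusted p = 6.1e-05). CHIP-/- hearts had 0.77, 0.67, 0.84 and 0.64 after sham and -0.58, -0.17, -0.38 and -0.30 after TAB, a fall of 1.09 (SE 0.10, adjusted p = 5.8e-08) to 47.0%. Wild-type TAB replicate 4 (-0.24) lay below CHIP-/- TAB replicate 2 (-0.17), and all other wild-type TAB arrays lay above all CHIP-/- TAB arrays.

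Dbt, the transacylase core of the complex, was at 0.98, 0.98, 0.89 and 0.99 in wild-type sham and at 0.62, 0.83, 0.73 and 0.18 in wild-type TAB, a fall of 0.37 (SE 0.11, adjusted p = 0.015). Without wild-type TAB replicate 4, the lowest array, the fall was 0.23 and did not pass (adjusted p = 0.058). Its CHIP-/- values were 1.24, 0.98, 0.84 and 1.05 after sham and 0.62, 0.51, 0.72 and 0.51 after TAB, a fall of 0.44 (SE 0.11, adjusted p = 0.0033). The 95% interval of this fall (-0.67 to -0.20) did not overlap those of the brightest probes of Bckdha (-1.24 to -0.90) and Bckdhb (-1.29 to -0.88) in the same hearts. It did overlap that of a dimmer Bckdha probe (-0.91 to -0.49, mean heart signal 119), and not that of a dimmer Bckdhb probe (-1.24 to -0.86). The difference between these genes was not tested. The probe of Dbt is dim, with a mean heart signal of 104 over a local background of 37.2, and the offset of 50 used in the background correction shrinks the differences of dim probes. With an offset of 16 the falls of Dbt were 0.46 in wild type and 0.56 in CHIP-/-.

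Bckdk, the kinase that holds the complex inactive, was at 0.61, 0.63, 0.58 and 0.63 in wild-type sham and at 0.67, 0.25, 0.34 and 0.32 in wild-type TAB. Replicate 1 of the TAB group thus lay above all sham arrays and the other 3 below them. The fall of 0.22 (SE 0.08, adjusted p = 0.04) lost its call in 14 of 33 alternative settings, with adjusted p up to 0.17. In CHIP-/- the values were 0.71, 0.52, 0.57 and 0.66 after sham and 0.23, 0.24, 0.38 and 0.28 after TAB, a fall of 0.33 (SE 0.08, adjusted p = 0.0022) with no overlap. It passed in 32 of the 33 settings; with the heart channel alone its fall was 0.21 (adjusted p = 0.068).

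**Figure D2:**
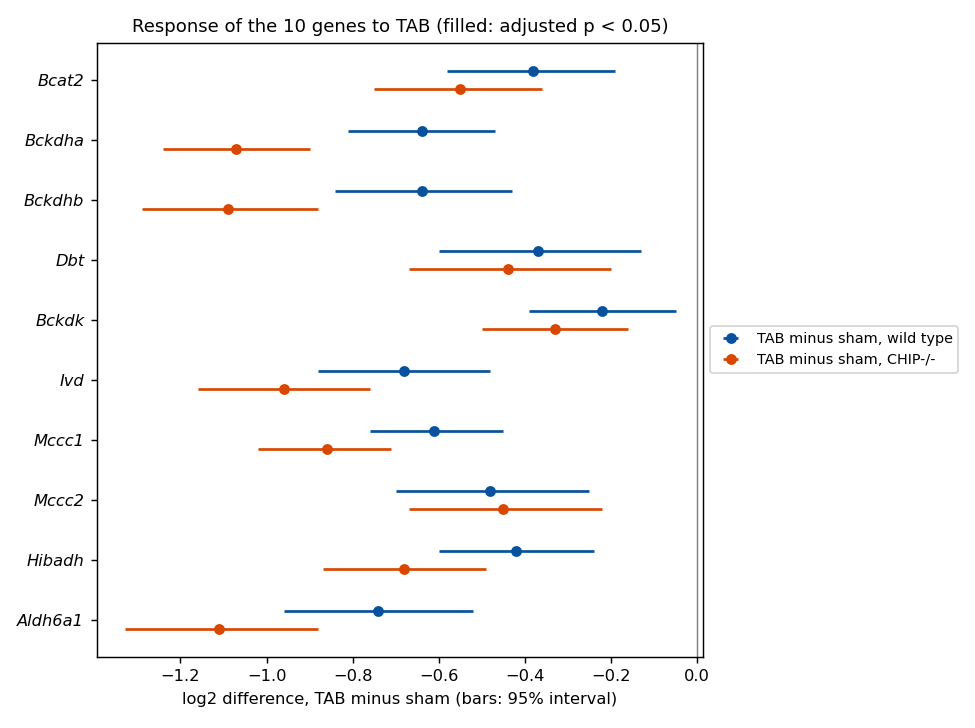
Log2 difference between TAB and sham (x axis) of the 10 genes (y axis) in wild type (blue) and CHIP-/- (orange); points are limma estimates, bars their 95% intervals, and filled points passed an adjusted p of 0.05. All 20 points are filled and lie below 0, from -0.22 for Bckdk in wild type to -1.11 for Aldh6a1 in CHIP-/-.

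Among the genes of the leucine path, Ivd encodes the isovaleryl-CoA dehydrogenase. It was at 1.81, 1.79, 1.80 and 1.73 in wild-type sham and at 1.22, 1.08, 1.20 and 0.92 in wild-type TAB, a fall of 0.68 (SE 0.10, adjusted p = 2.7e-05). CHIP-/- hearts had 1.70, 1.82, 1.85 and 1.83 after sham and 0.57, 1.13, 0.78 and 0.87 after TAB, a fall of 0.96 (SE 0.10, adjusted p = 1.8e-07) to 51.3%. Sham and TAB arrays were well apart in both genotypes. Mccc1, the biotin-carrying subunit of methylcrotonyl-CoA carboxylase, was at 0.75, 0.67, 0.64 and 0.45 in wild-type sham and at 0.05, -0.03, 0.10 and -0.06 in wild-type TAB, a fall of 0.61 (SE 0.07, adjusted p = 5.8e-06). Its CHIP-/- values were 0.66, 0.46, 0.68 and 0.53 after sham and -0.35, -0.22, -0.29 and -0.27 after TAB, a fall of 0.86 (SE 0.07, adjusted p = 3.2e-08). All 4 CHIP-/- TAB arrays lay below all 4 wild-type TAB arrays. Mccc2, the other subunit of that carboxylase, was at 0.69, 0.53, 0.70 and 0.66 in wild-type sham and at -0.16, 0.23, 0.42 and 0.19 in wild-type TAB, a fall of 0.48 (SE 0.11, adjusted p = 0.002). In CHIP-/- it was at 0.54, 0.48, 0.40 and 0.62 after sham and at 0.05, 0.31, 0.06 and -0.17 after TAB, a fall of 0.45 (SE 0.11, adjusted p = 0.002). Mccc2 had the dimmest probe of the 10 genes (mean heart signal 83.3 over 41.9), and it was well above background on 3 of 4 wild-type TAB and 1 of 4 CHIP-/- TAB arrays. Its fall was 0.68 in wild type and 0.66 in CHIP-/- with an offset of 16. In the log ratios of the scanner software, which differ in background correction and in normalization, it was 0.93 and 1.33.

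Of the valine path, Hibadh encodes 3-hydroxyisobutyrate dehydrogenase, whose substrate is the free acid that can leave the cell. It was at 1.40, 1.49, 1.44 and 1.34 in wild-type sham and at 1.24, 0.91, 1.01 and 0.83 in wild-type TAB, a fall of 0.42 (SE 0.08, adjusted p = 0.00085). In CHIP-/- it was at 1.39, 1.43 and 1.43 on the 3 sham arrays with a value (the spot of replicate 1 was marked an outlier and left out of the fit) and at 0.67, 0.89, 0.65 and 0.73 after TAB. This was a fall of 0.68 (SE 0.09, adjusted p = 7.4e-06) to 62.3%. Aldh6a1, the methylmalonate semialdehyde dehydrogenase, was at 1.57, 1.76, 1.64 and 1.53 in wild-type sham and at 1.16, 0.80, 0.96 and 0.62 in wild-type TAB, a fall of 0.74 (SE 0.11, adjusted p = 3.1e-05) to 60.0%. CHIP-/- hearts had 1.73, 1.68, 1.88 and 1.58 after sham and 0.51, 0.77, 0.44 and 0.72 after TAB, a fall of 1.11 (SE 0.11, adjusted p = 1.2e-07) to 46.5%. On the brightest probes Aldh6a1 had the lowest value of the 10 genes in both genotypes, but its intervals (-0.96 to -0.52 and -1.33 to -0.88) overlapped those of Ivd, Bckdha and Bckdhb.

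Placed among all features, 0.95% of them had a difference as low as or lower than that of Aldh6a1 in wild type and 18.2% one as low as that of Bckdk. In CHIP-/- the corresponding shares were 0.805% and 14.2%. The plot of all features shows the same positions.

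**Figure D3:**
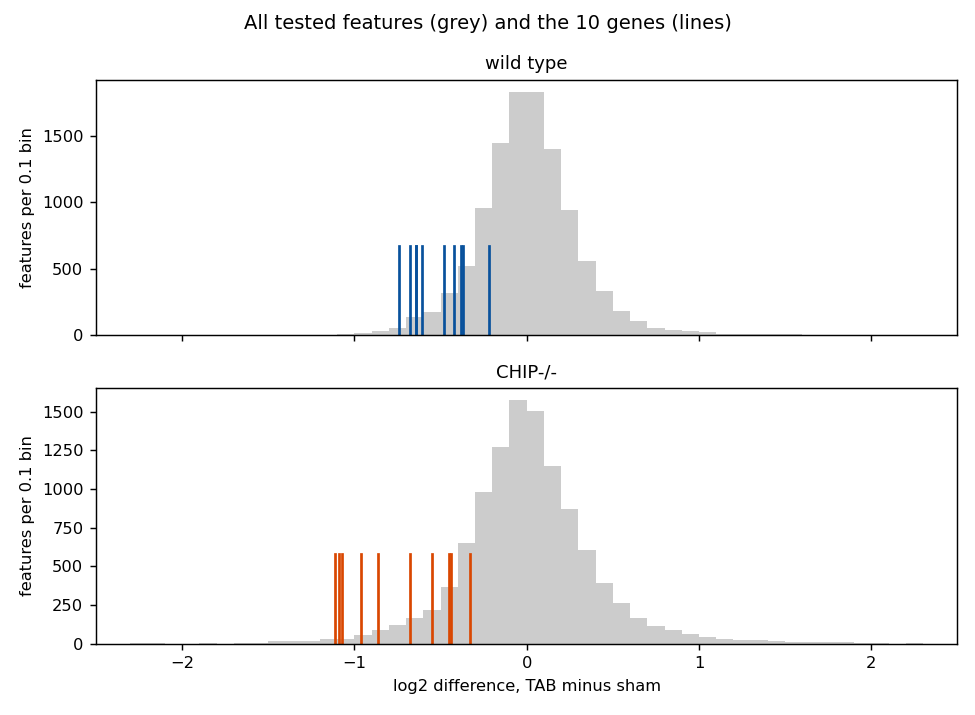
Number of features (y axis) per 0.1 of log2 difference between TAB and sham (x axis, drawn from -2.5 to 2.5) in wild type (top) and CHIP-/- (bottom), with a coloured line at the value of each of the 10 genes (the height of the lines has no meaning). Both distributions centre near 0 and all lines lie to the left, at -0.74 to -0.22 in wild type and -1.11 to -0.33 in CHIP-/-.

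Within the TAB groups the order of the arrays was much alike from gene to gene. Wild-type TAB replicate 4 had the lowest value of its group for 8 of the 10 genes and replicate 1 the highest for 6, and the mean over the 10 genes was 0.43 and 0.70 on these arrays. CHIP-/- TAB replicate 2 had the highest value for 8 of the 10 genes (mean 0.50) and replicate 1 the lowest for 5 (mean 0.28). The sham arrays had means between 1.08 and 1.14 where all 10 genes were measured. The residual SD within groups was 0.09 for Mccc1 and 0.18 for Dbt, the lowest and the highest of the 10. The order was not particular to these genes. Summed ratios of 19 other pathway genes and of 19 genes of mitochondrial structure were also highest on wild-type TAB replicate 1 (40 and 36.2) and lowest on replicate 4 (32.3 and 32.6). In CHIP-/- TAB both were highest on replicate 2 (33 and 32.8). Wild-type TAB replicate 1 also had the lowest fibroblast sum of its group (9.06) and the smallest share of heart signals well above background (27%).

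Leaving out arrays ended some calls in wild type. Without the 3 arrays with high Myl7, 7 of the 10 genes fell in wild type: Bcat2 (-0.29, adjusted p = 0.072), Dbt (-0.39, adjusted p = 0.052) and Bckdk (-0.23, adjusted p = 0.13) did not pass, while the number of features called dropped from 3905 to 2378. Only replicates 2 and 4 then stood for wild-type sham. With all arrays the differences were -0.38 for Bcat2, -0.37 for Dbt and -0.22 for Bckdk. Without the 3 arrays with Y-linked transcripts, 9 of 10 fell in wild type and Bckdk (-0.21, adjusted p = 0.089) did not pass. All 10 fell in CHIP-/- without either set of arrays. With median centring in place of loess the median of all features moved to -0.189 in wild type and -0.219 in CHIP-/-. The median of the 10 genes was then -0.86 and -1.21, so that they still lay below the bulk of features. Under that centring 7.89% of the calls in wild type and 12% of those in CHIP-/- were higher after TAB, against 51.8% and 50.4% with loess.

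CHIP-/- against wild type after sham asks whether the loss of CHIP alone sets these genes at another level. On their brightest probes 0 of the 10 genes were called with limma, and 0 had an unadjusted p under 0.05. Of all features, 0.00904% were called, which is the Stub1 probe alone, and 7.98% had an unadjusted p under 0.05. The differences ran from -0.13 for Mccc2 to 0.09 for Aldh6a1, and their 95% intervals from -0.36 to 0.31. For each gene, a difference within its own interval thus remains possible. The dimmer probe of Bcat2 was at -0.28 (95% interval -0.51 to -0.05) and was not called by limma (unadjusted p = 0.021, adjusted p = 0.54). Without the arrays with high Myl7 or those with Y-linked transcripts, 0 genes were called too.

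CHIP-/- against wild type after TAB asks whether the genotypes differ under load. There 3 of the 10 genes were lower in CHIP-/-, against 5.15% of all features. They were Bckdha (-0.44, SE 0.08, adjusted p = 0.0019), Bckdhb (-0.37, SE 0.10, adjusted p = 0.02) and Mccc1 (-0.30, SE 0.07, adjusted p = 0.014). Bckdha and Mccc1 did not overlap between genotypes, which held in this direction for 6.74% of features. The median difference of the 10 genes was -0.27, and the other 7 ranged from 0.00 for Dbt (95% interval -0.24 to 0.23) to -0.28 for Aldh6a1 (-0.50 to -0.06, adjusted p = 0.11). Ivd (-0.27, adjusted p = 0.087) and Hibadh (-0.26, adjusted p = 0.055) did not pass either. Each of the 3 called genes has a dimmer probe, and none of those was called by limma. The difference was -0.06 for Bckdha (adjusted p = 0.78), -0.28 for Bckdhb (0.069) and -0.16 for Mccc1 (0.39). The dimmer Mccc1 probe was well above background on 2 of 4 wild-type TAB and 0 of 4 CHIP-/- TAB arrays. It was thus too near background to show a lower level in CHIP-/-. The dimmer probes of Ivd (0.07) and Bcat2 (0.09) had the opposite sign to the brighter ones. With the mean of a gene's probes, which includes that Mccc1 probe, 1 gene was called and the median was -0.17. On the brighter probes, the same 3 genes were called without the arrays with high Myl7 and without those with Y-linked transcripts. All of these are sham arrays, which enter this comparison only through the spread shared by all groups. Leaving them out could not change the differences after TAB and is no check of them. Among the TAB arrays, 6 genes were called without wild-type TAB replicate 4, 5 without CHIP-/- TAB replicate 2 and 1 without wild-type TAB replicate 3. Bckdhb also missed the threshold without wild-type TAB replicate 1 (adjusted p = 0.079), CHIP-/- TAB replicate 1 (0.076) or CHIP-/- TAB replicate 3 (0.057).

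The interaction tests the difference between the responses itself, with the wild-type response subtracted from that of CHIP-/- hearts. Bckdha alone was called, with an additional fall of 0.43 (SE 0.12, 95% interval -0.67 to -0.19, adjusted p = 0.046), and 1.38% of all features were called in that direction. Bckdhb had the larger value, -0.45 (SE 0.14, adjusted p = 0.079), and Aldh6a1 had -0.37 (SE 0.15, adjusted p = 0.19). The interaction was below 0 for 9 of the 10 genes, with a median of -0.26, and above 0 for Mccc2 (0.03, 95% interval -0.29 to 0.34). These are values of the brighter probes. The Mccc2 probe was well above background on 3 of 4 wild-type TAB and 1 of 4 CHIP-/- TAB arrays. Its interaction ran from -0.41 to 0.11 over the 33 alternatives, so its sign is not settled. With the mean of a gene's probes, which includes the Mccc1 probe near background, the median was -0.11. For 5 of the 10 the unadjusted p was under 0.05, against 18.2% of features in either direction. The call of Bckdha was lost in 23 of 33 alternative settings, with values from -0.50 to -0.27 and adjusted p from 0.023 to 0.23. It was -0.38 without the arrays with high Myl7 (adjusted p = 0.19) and -0.44 without those with Y-linked transcripts (adjusted p = 0.19), and 12 of the 16 omissions of a single array ended it. It passed without wild-type sham replicate 4, wild-type TAB replicate 4, CHIP-/- TAB replicate 2 or CHIP-/- TAB replicate 4.

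For 5 genes a further, dimmer probe passed the filter. In wild type these probes of Bcat2, Bckdha, Bckdhb and Ivd fell by 0.63, 0.59, 0.69 and 0.80. In CHIP-/- those of Bckdhb, Bckdha and Ivd fell by 1.05, 0.70 and 0.68. The Bcat2 probe was at -0.26 (SE 0.11, adjusted p = 0.059) there. The Bckdhb probes thus gave much the same values in both genotypes (-0.64 and -0.69, -1.09 and -1.05). Those of Bckdha did so in wild type only, and the interaction of its dimmer probe was -0.11 (95% interval -0.41 to 0.19, adjusted p = 0.78) against -0.43 for the brighter one. The mean heart signal was 119 for the dimmer Bckdha probe and 968 for the brighter one. For Bcat2 the interaction had opposite signs on its probes, -0.17 and 0.37 (adjusted p = 0.56 and 0.24). The dimmer Mccc1 probe was well above background on 0 of 4 CHIP-/- TAB arrays and on 2 of 4 wild-type TAB arrays. Its fitted differences (-0.62 in wild type and -0.59 in CHIP-/-) therefore give no measured size of the fall. For Ivd the interaction was -0.28 on the brighter and 0.12 on the dimmer probe. For Mccc1 it was -0.26 on the brighter probe, and the 0.03 of its dimmer probe gives no measured sign for the same reason. The interaction was thus above 0 on the dimmer probes of Bcat2 and Ivd and below 0 on those of Bckdha and Bckdhb (-0.36). After TAB, 0 of the 5 dimmer probes differed between genotypes by limma, and 1, that of Bckdhb, had an unadjusted p under 0.05. The Mccc1 probe was too near background to show a lower level in CHIP-/-. Further probes of Bcat2 and Mccc2 were not well above background on any array.

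**Figure D4:**
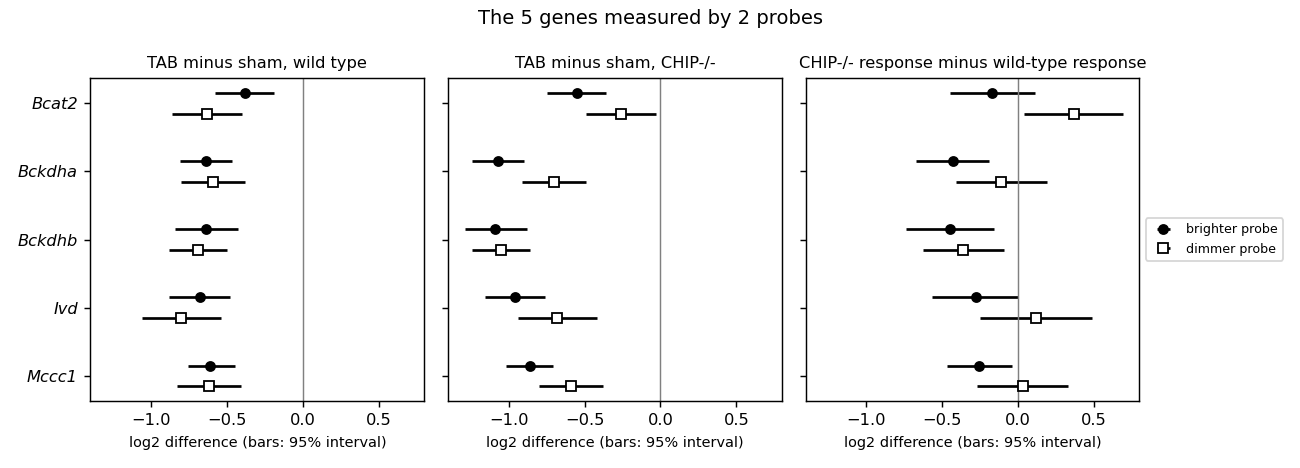
Log2 differences (x axis, same scale in all panels) of the 5 genes measured by a brighter (filled circles) and a dimmer probe (open squares), for TAB minus sham in wild type, in CHIP-/-, and for the difference between these responses; bars are 95% intervals. The pairs of Bckdhb lie close together in all panels, while the interaction of Bcat2 is -0.17 on the brighter and 0.37 on the dimmer probe.

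Other genes of the same pathway were read from a list of 23, of which 19 were tested. In wild type 13 of the 19 fell and 0 rose, with a median of -0.31, against 17.0% of all features called lower. In CHIP-/- 15 fell and 0 rose, with a median of -0.53, against 23.5% of all features. The largest falls in wild type were those of Klf15 (-0.96), Ppm1k (-0.60) and Pcca (-0.58), the last encoding a subunit of propionyl-CoA carboxylase. In CHIP-/- they were those of Klf15 (-1.41), Ppm1k (-1.04) and Auh (-1.0), a hydratase of the leucine path. A dimmer probe of Auh went the other way and rose by 0.47 in wild type (SE 0.09, adjusted p = 0.00074) and by 0.37 in CHIP-/- (SE 0.09, adjusted p = 0.003), so the direction for Auh rests on the probe chosen. Without the arrays with high Myl7 the counts were 9 and 15, and without those with Y-linked transcripts 11 and 13. The amino acid carriers of the cell membrane were not called in either genotype: Slc7a5 was at -0.02 and 0.06 and its partner Slc3a2 at -0.15 and -0.13. Mmab, which makes the cofactor of methylmalonyl-CoA mutase, was not called either, at -0.09 and -0.08.

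Regulators of the pathway were among these genes. Klf15, a zinc finger transcription factor known to raise branched-chain amino acid breakdown in muscle, was at 2.10, 2.46, 2.43 and 2.02 in wild-type sham and at 1.65, 1.36, 1.12 and 1.05 in wild-type TAB (SE 0.16, adjusted p = 0.00013). In CHIP-/- it was at 2.12, 2.34, 2.28 and 2.25 after sham and at 0.79, 1.18, 0.32 and 1.07 after TAB (SE 0.16, adjusted p = 7.3e-07). Its dimmer probe fell by 0.58 and 0.38. Ppm1k, the phosphatase that opposes Bckdk and switches the complex on, was at 1.98, 1.97, 2.14 and 1.84 in wild-type sham and at 1.78, 1.18, 1.48 and 1.06 in wild-type TAB (SE 0.12, adjusted p = 0.00094). In CHIP-/- it was at 2.15, 2.20, 2.30 and 2.01 after sham and at 1.04, 1.35, 1.01 and 1.12 after TAB (SE 0.12, adjusted p = 1.6e-06). A further probe of Ppm1k fell by 1.05 in both genotypes. The 95% intervals of Ppm1k and of Bckdk were apart in CHIP-/- (-1.30 to -0.78 and -0.50 to -0.16) and met in wild type (-0.86 to -0.34 and -0.39 to -0.05); the difference between these genes was not tested. Dld, the subunit that the complex shares with pyruvate dehydrogenase, fell by 0.54 in wild type (SE 0.09, adjusted p = 9.5e-05) and by 0.86 in CHIP-/- (SE 0.09, adjusted p = 2.1e-07). Of its further probes both fell in both genotypes, by 0.54 and 0.55 in wild type and by 0.87 and 0.60 in CHIP-/-. Bcat1, the cytosolic transaminase, and Slc25a44, the mitochondrial carrier of these amino acids, were not tested: their best probes were well above background on 3 and 1 of the 16 arrays.

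**Figure D5:**
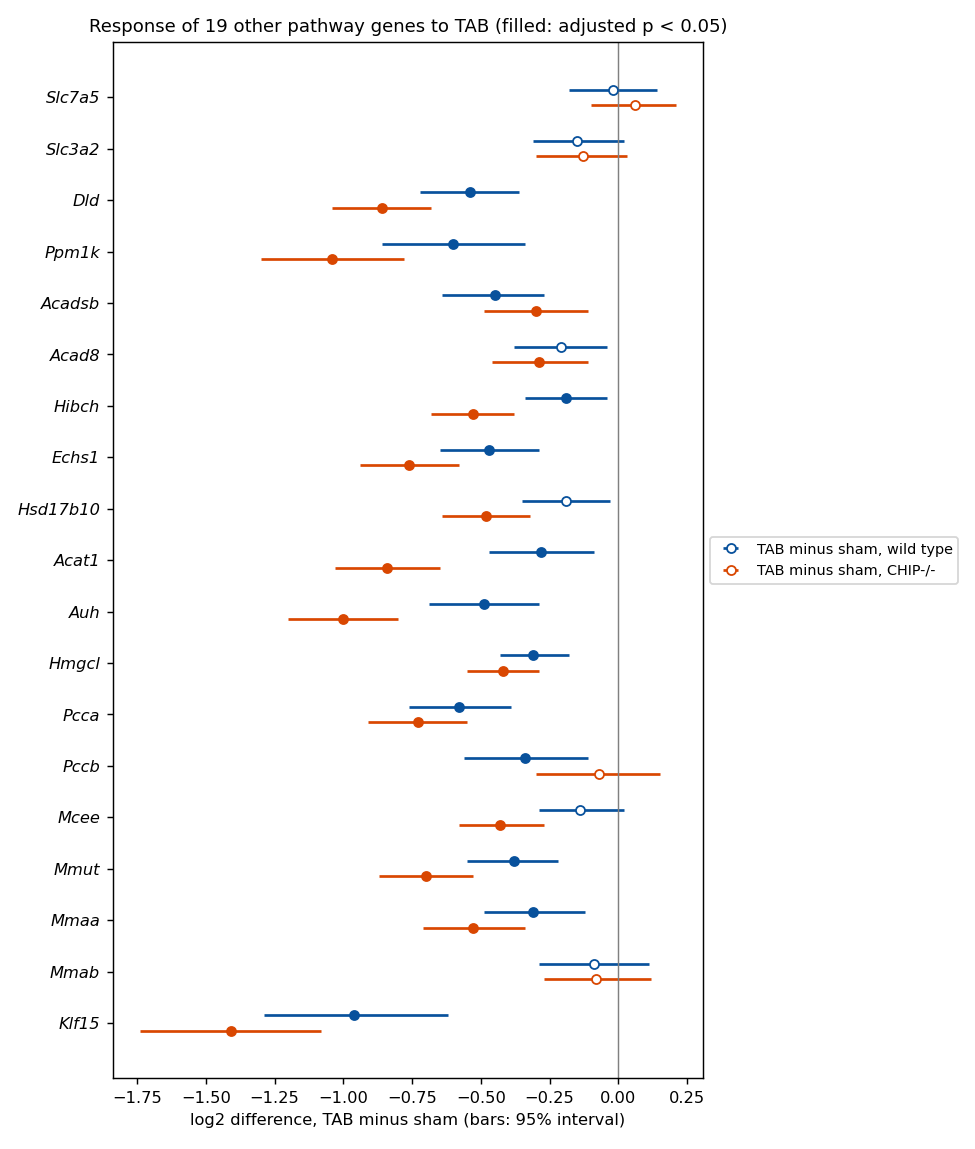
Log2 difference between TAB and sham (x axis) of 19 other genes of the pathway (y axis) in wild type (blue) and CHIP-/- (orange), with 95% intervals; filled points passed an adjusted p of 0.05. In wild type 13 points are filled and in CHIP-/- 15, all below 0, with Klf15 lowest at -0.96 and -1.41.

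Between genotypes after sham, 0 of the 19 genes were called with limma on their brightest probes, with a median of -0.01. There 1 gene, Acadsb, had an unadjusted p under 0.05 (-0.23, adjusted p = 0.49). The dimmer Klf15 probe was at -0.20 (unadjusted p = 0.037, adjusted p = 0.61). After TAB 7 of the 19 were lower in CHIP-/- and 0 higher by limma, with a median of -0.25, against 5.15% of all features called lower. The largest were Acat1 (-0.46, adjusted p = 0.0031), Auh (-0.39, adjusted p = 0.013) and Echs1 (-0.31, adjusted p = 0.024). The interaction was called for Acat1, the acetoacetyl-CoA thiolase of the isoleucine path (-0.57, SE 0.13, adjusted p = 0.022), and for Auh (-0.51, SE 0.13, adjusted p = 0.043). In that direction 1.38% of all features were called. On the dimmer probe of Auh the difference after TAB was 0.03 and the interaction -0.10 (adjusted p = 0.89 and 0.78). Without the arrays with high Myl7, and without those with Y-linked transcripts, 0 of the 19 were called for the interaction. Klf15 (-0.45, adjusted p = 0.3), Ppm1k (-0.43, adjusted p = 0.19) and Dld (-0.32, adjusted p = 0.16) did not pass for the interaction by limma with all arrays. Their further probes were not called either, at 0.20 for Klf15, 0.00 for Ppm1k, and -0.34 and -0.05 for Dld. The sign for Klf15 thus rests on the probe chosen.

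Genes of mitochondrial structure, import and DNA upkeep moved in the same comparisons. Among all features 17.0% fell and 18.3% rose in wild type, and 23.5% fell and 23.9% rose in CHIP-/-. Of 20 such mitochondrial genes tested, 8 fell and 2 rose in wild type (median -0.17). Mfn2 (-0.52) and Opa1 (-0.51), which fuse mitochondrial membranes, were furthest down. In CHIP-/- 13 fell and 0 rose (median -0.36), led by Opa1 (-0.73) and Immt (-0.71). The linear ratios of 19 of them summed to 38.8 to 41.4 in wild-type sham and to 32.6 to 36.2 in wild-type TAB. The sum was 39.5 to 40.4 in CHIP-/- sham and 28.1 to 32.8 in CHIP-/- TAB. Such a sum is weighted towards genes with a high ratio to the reference and does not measure the amount of RNA or of cells. Without the arrays with high Myl7, 4 fell and 1 rose in wild type and 12 fell in CHIP-/-. Without those with Y-linked transcripts, 8 fell and 2 rose in wild type and 11 fell in CHIP-/-.

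Marker genes of the cells in the ventricle moved as well. Among all features 18.3% rose and 17.0% fell in wild type, and 23.9% rose and 23.5% fell in CHIP-/-. Of 13 tested heart muscle genes, 6 fell and 1 rose in wild type (median -0.07), with Pln at -0.86, and 8 fell and 1 rose in CHIP-/- (median -0.31), with Pln at -1.24. The summed ratio of 10 of them was 173 to 194 in wild-type sham, 167 to 197 in wild-type TAB, 170 to 195 in CHIP-/- sham and 134 to 160 in CHIP-/- TAB. This sum and those below are weighted towards genes with high ratios and do not measure cell content. Of 15 fibroblast genes 10 rose in wild type and 12 in CHIP-/- (1 fell in each), with Postn at 2.31 and 4.67, and the sum of 13 was 7.62 to 9.18, 9.06 to 12.8, 6.75 to 8.11 and 14.3 to 15.9 in the same order of groups. Of 14 macrophage genes 11 and 13 rose and 0 fell, with Ctss at 1.06 and 2.06, and the sum of 13 was 12.2 to 13.1, 16.1 to 17.7, 11.3 to 12.1 and 20.3 to 24.4. Of 13 endothelial genes 10 rose and 1 fell in wild type, and 4 rose and 2 fell in CHIP-/-, with sums of 23.3 to 25.8, 26.8 to 33.7, 23.7 to 25.4 and 24.7 to 28.1. Of 11 smooth muscle genes 8 rose and 1 fell in wild type and 7 rose and 2 fell in CHIP-/-, with sums of 13.0 to 13.4, 15.5 to 17.6, 12.2 to 12.7 and 14.3 to 15.7. Of 7 adipocyte genes 4 rose in each genotype and 0 fell, with sums of 6 between 1.20 and 1.65. Of 4 atrial genes Nppa alone rose (1.73 and 2.87), and of 3 blood cell genes Ptprc alone (0.32 and 0.57), while 6 others of blood cells were not well above background on any array. These counts depend on the centring: with median centring 5 fibroblast and 4 macrophage genes rose in wild type and 8 and 9 in CHIP-/-, and the endothelial median in CHIP-/- went from 0.09 to -0.13. Without the arrays with high Myl7, 4 heart muscle genes fell in wild type and 8 in CHIP-/-, while 7 and 12 fibroblast, 9 and 13 macrophage, 8 and 4 endothelial, 6 and 6 smooth muscle, 4 and 4 adipocyte, 1 and 3 atrial and 1 and 1 blood cell genes rose. Without the arrays with Y-linked transcripts, 6 heart muscle genes fell in wild type and 5 in CHIP-/-, while 10 and 9 fibroblast, 11 and 13 macrophage, 9 and 2 endothelial, 6 and 6 smooth muscle, 3 and 3 adipocyte, 1 and 1 atrial and 1 and 1 blood cell genes rose. The part of these shifts in cell markers in the falls of the branched-chain amino acid genes was not tested.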

How the data were processed

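Heart ventricle RNA (Cy5) and a reference RNA (Cy3) were hybridized together to 16 arrays with the same dye orientation, per the labels. Per the file headers, a GenePix 4000B scanner read the arrays (Agilent pattern 014868), and Feature Extraction 9.1.3.1 quantified the spots. Deposited per-array files give linear intensity values (mean signal and median local background) and a log10 ratio of heart over reference. The table the authors deposited for the whole series holds log2 ratios for 14322 probes, centred on each probe's median; its column medians were -0.03 to 0.03, and its scale, centring and direction were found by setting it against the scanner log ratios.

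Signals were background-corrected with limma's normexp (version 3.58.1, R 4.3.3; offset 50), normalized within arrays by loess with control spots at weight 0, and outlier spots were left out. Spots of a probe were averaged. A probe was kept if its heart signal was marked well above background on 4 arrays or more, and a feature needed values on at least 15; of 41174 probes 14908 passed the first filter. The brightest probe stood for a gene. Probes were named through RefSeq (22951 by accession, 6659 by symbol, 3109 by synonym). In the CHIP-/- TAB files 47 gene names were altered, so names were taken by probe. One linear model with a mean per group was fitted to all features (limma, moderated errors with an intensity trend), with Benjamini-Hochberg adjustment over the 11058 features of each of 5 comparisons; rose, fell and called mean an adjusted p under 0.05. The code was tested on simulated data. Precision is limited by 4 arrays per group. The replicate numbers did not pair the samples: same-numbered deviations from the group means correlated at -0.19 to 0.19.

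The 10 genes and the gene lists were chosen with earlier results of these data known. All 10 genes are named with every probe. Of the other pathway genes, the 3 largest called differences in each direction and comparison and Bcat1, Dld, Ppm1k, Slc25a44 and Klf15 are named, and up to 2 genes per marker list; Slc7a5, Slc3a2, Mmab, Acadsb and Mmut were named after their values were seen. Alternatives were other background corrections, normalizations, filters, probe rules and error models, a replicate block, the deposited table, and leaving out arrays. Robust moderation and array position as a block were added after seeing the data.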

Additional observations from a re-analysis of the deposited data

Results flagged for a closer look

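In 39 groups of 4 arrays, 3 arrays lay apart from the other 3 of their group for a gene of the set, and chance flags about 1 in 20 such groups. Bcat2 was at 1.41 on CHIP-/- sham replicate 1 and at 1.67 to 1.68 on the others. Bckdha was at 1.47 on wild-type sham replicate 4 and at 1.25 to 1.28 on the others. Dbt was at 0.89 on wild-type sham replicate 3 and at 0.98 to 0.99 on the others. The response to TAB differed between the genotypes by the interaction test for Bckdha (-0.43), Acat1 (-0.57) and Auh (-0.51), each with the larger fall in CHIP-/- on its brighter probe. A dimmer probe gave -0.11 for Bckdha and -0.10 for Auh, and neither was called. In 33 alternative settings the call held in 10 for Bckdha, 27 for Acat1 and 11 for Auh.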

How the results depend on the processing

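The falls of Bckdha, Bckdhb, Ivd, Mccc1, Mccc2, Hibadh and Aldh6a1 with TAB kept their direction and call in both genotypes under all 33 alternatives, from -1.07 to -0.35 in wild type and from -1.50 to -0.37 in CHIP-/-. Not all of these are separate checks. Leaving out an array of 1 genotype cannot change the TAB difference of the other, only its error. The deposited table and the scanner log ratios gave the same member medians with TAB (-0.64 in wild type and -0.95 in CHIP-/-). In wild type the call of Bckdk was lost under 14, that of Dbt under 2 and that of Bcat2 under 1. Leaving out 1 array at a time gave 8 to 10 members called in wild type (3336 to 3958 features), 10 in CHIP-/- (4734 to 5286 features), 0 after sham (1 to 9 features), 1 to 6 after TAB (607 to 1235 features) and 0 to 2 for the interaction (158 to 551 features). Scaling between arrays (Aquantile) leaves log ratios as they are and changed nothing. Between genotypes after sham the features called were 4 with median centring, 2 with an offset of 16, 13 with the heart channel alone, 2 with the filter at 12 arrays, 4 with every probe, 3 with the mean of probes, 2 without a trend, 4 with array weights, 8 without the arrays with high Myl7 and 2 with robust moderation. After TAB, median centring called 369 features and 1 member, and the mean of probes 1 member. The interaction had 119 features with median centring, 112 with the deposited log10 ratios, 176 without a filter, 194 without the arrays with high Myl7, 19 without those with Y-linked transcripts and 93 in the deposited log2 table. Under each of these, and with an offset of 16, every probe, the mean of probes, the replicate block or array position, it had 0 members. In wild type 2378 features were called without the arrays with high Myl7. With the replicate block the interaction of Bckdha was -0.43 (adjusted p = 0.069), and all 10 members fell in both genotypes. The cause of these changes was not tested.

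Signs turned for 51 member values, 0 of them called. After sham these were Bckdha 0.05, Mccc1 0.03 and Hibadh 0.09 (median centring), Hibadh 0.00 (offset 16), Bckdk -0.10 and Ivd -0.04 (heart channel), Bcat2 -0.10, Bckdha 0.02 and Ivd -0.02 (mean of probes), Bckdk 0.00 (array weights), Dbt -0.03 and Bckdk -0.04 (without high Myl7), Bcat2 -0.01 and Ivd -0.03 (without Y-linked transcripts), and Hibadh 0.02 (replicate block), 0.00 (deposited table) and 0.01 (position). After TAB they were Dbt 0.02 (median centring), 0.05 (deposited log10 ratios), 0.03 (offset 16), 0.02 (heart channel) and 0.05 (deposited table). For the interaction they were Mccc2 -0.41 (deposited log10 ratios), -0.04 (heart channel), -0.03 (array weights), -0.02 (without high Myl7) and -0.40 (deposited table), Bcat2 0.10 (mean of probes) and Dbt 0.03 (without high Myl7). Leaving out 1 array, values after sham ran from -0.04 to 0.04 for Bckdha, 0.00 to 0.13 for Dbt, -0.03 to 0.03 for Bckdk, 0.00 to 0.05 for Ivd, -0.10 to 0.00 for Mccc1 and -0.03 to 0.02 for Hibadh. After TAB Dbt ran from -0.14 to 0.08, and for the interaction Dbt ran from -0.21 to 0.01 and Mccc2 from -0.08 to 0.11.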

Other observations

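For Mmab, the brighter probe was not called (-0.09 and -0.08), while the dimmer one fell by 0.45 and 0.61. Both Mmut (methylmalonyl-CoA mutase) probes that passed the filter fell, by 0.38 and 0.61 in wild type and by 0.70 and 0.91 in CHIP-/-. Mmut lies on chromosome 17 like Stub1, and its difference between genotypes after sham was 0.00 on both probes. After TAB it was lower in CHIP-/- by limma on the brighter probe (-0.31, adjusted p = 0.016). The dimmer one was at -0.30 (adjusted p = 0.079).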
